A study of Mus musculus with 2 samples.

Results

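*Arg1* and 8 immune checkpoint genes were followed through every cell class of Lewis lung carcinoma (LLC) tumors, a transplantable mouse lung cancer line grown under the skin. The genes were chosen by name: *Arg1*, *Il10*, *Cd274*, *Pdcd1lg2*, *Lgals9*, *Pdcd1*, *Ctla4*, *Havcr2* and *Tigit*, 9 of the 32285 genes in the feature table, all of which had UMIs (unique molecular identifiers, each standing for 1 captured mRNA) in the retained cells. The study deleted *Gucy1b1*, the β1 subunit of the nitric oxide receptor soluble guanylate cyclase (sGC), in pericytes, and profiled whole tumors by droplet 3′ single-cell RNA sequencing. The 2 groups were sGCCtr, *Gucy1b1* flox/flox mice without Cre, and sGCΔPC, Cspg4-CreERT2 :: *Gucy1b1* flox/flox mice, in which an inducible Cre was driven by *Cspg4*, the gene of the pericyte surface protein NG2. All mice were C57BL/6, were given tamoxifen (5 doses) when 4 weeks old and LLC cells when 8 weeks old, and their tumors were taken 2 weeks later. Each group was 1 library of cells pooled from 3 tumors, so that library and genotype cannot be told apart, no test between the groups was possible, and every interval below is a 95% interval for counting error alone.

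Arginase 1, the product of *Arg1*, splits arginine into ornithine and urea, and macrophages that make it deplete the arginine that T cells need to proliferate. IL-10 is a cytokine that restrains antigen presentation and inflammatory cytokine output. The checkpoint genes are ligand and receptor pairs that brake T cells: PD-L1 (*Cd274*) and PD-L2 (*Pdcd1lg2*) bind PD-1 (*Pdcd1*), galectin-9 (*Lgals9*) is a ligand of TIM-3 (*Havcr2*), and CTLA-4 (*Ctla4*) competes for the costimulatory ligands CD80 and CD86 while TIGIT (*Tigit*) binds the poliovirus receptor family. In tumors the ligands are usually carried by myeloid, endothelial or cancer cells and the receptors by activated and regulatory T cells, although TIM-3 is also carried by dendritic cells and macrophages.

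In the mouse genome build GRCm38, *Arg1* lies at chr10:24915221-24927484 on the minus strand and *Il10* at chr1:131019845-131024974 on the plus strand. Both PD-1 ligand genes lie on the plus strand of chromosome 19, *Cd274* at chr19:29367455-29388095 and *Pdcd1lg2* at chr19:29410919-29471161. *Havcr2* and its ligand gene share chromosome 11, *Havcr2* at chr11:46454935-46481255 (plus) and *Lgals9* at chr11:78962974-78984946 (minus). The remaining receptor genes lie at chr1:94038305-94052553 (*Pdcd1*, minus), chr1:60887000-60915832 (*Ctla4*, plus) and chr16:43648867-43664146 (*Tigit*, minus). The 250 bases before the start of 7 of the 9 genes were read from the RefSeq promoter table of GRCm38.p6, with *Arg1* and *Il10* named only. The RefSeq starts were not always the ends of the gene spans above. The *Ctla4* window, chr1:60908775-60909024, lay inside its gene span, and the *Lgals9* window overlapped the end of its span. The promoters of the 4 ligand and receptor genes carried mostly or partly by myeloid cells are shown here 5′ to 3′ on the strand of the gene, in lower case, with capitals for any match to the motifs searched.
*Cd274*, chr19:29367188-29367437, plus strand: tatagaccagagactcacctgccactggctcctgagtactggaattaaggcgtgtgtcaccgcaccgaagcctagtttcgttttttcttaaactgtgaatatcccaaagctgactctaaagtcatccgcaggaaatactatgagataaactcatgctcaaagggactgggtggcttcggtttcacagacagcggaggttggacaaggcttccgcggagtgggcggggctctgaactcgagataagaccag
*Pdcd1lg2*, chr19:29410669-29410918, plus strand: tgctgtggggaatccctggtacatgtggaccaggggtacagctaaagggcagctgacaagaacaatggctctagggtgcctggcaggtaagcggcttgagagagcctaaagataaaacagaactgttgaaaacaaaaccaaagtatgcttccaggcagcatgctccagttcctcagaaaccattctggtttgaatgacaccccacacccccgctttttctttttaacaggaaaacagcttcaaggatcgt
*Havcr2*, chr11:46454681-46454930, plus strand: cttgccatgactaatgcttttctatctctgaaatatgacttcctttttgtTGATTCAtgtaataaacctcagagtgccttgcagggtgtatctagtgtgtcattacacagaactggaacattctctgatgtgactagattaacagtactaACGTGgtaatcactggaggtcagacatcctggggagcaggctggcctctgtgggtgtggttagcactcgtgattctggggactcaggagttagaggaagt
*Lgals9*, chr11:78984925-78985174, minus strand: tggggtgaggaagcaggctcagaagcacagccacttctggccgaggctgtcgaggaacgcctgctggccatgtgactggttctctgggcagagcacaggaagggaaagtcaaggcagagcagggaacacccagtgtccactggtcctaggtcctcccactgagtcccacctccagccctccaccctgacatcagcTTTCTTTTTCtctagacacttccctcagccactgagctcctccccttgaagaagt

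Each promoter was searched on both strands for 5 patterns. These were the STAT site TTCNNNGAA, found in 7.02% of all 32851 promoters of that length, the interferon response pattern of GAAA repeated after any 2 bases (2.98%), the AP-1 site TGANTCA (6.75%), the NF-κB pattern of GGGA and TTCC around any 2 bases (1.21%) and the hypoxia response core ACGTG (16.6%). *Lgals9* held the interferon pattern on its other strand, *Havcr2* held an AP-1 site and a hypoxia core, and *Ctla4* and *Tigit* held a hypoxia core each, with no overlap between matches. None of the 5 patterns was found in the windows of *Cd274*, *Pdcd1lg2* and *Pdcd1*. Such matches describe letters and not bound sites.

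The libraries held 15007 (sGCCtr) and 25631 (sGCΔPC) cell barcodes with 487859656 and 436352742 UMIs, of which 12220 and 22498 cells were retained, and 131 barcodes occurred in both. The retained cells differed in depth, with a median of 35776.5 UMIs in sGCCtr and 8685 in sGCΔPC. Cells were classed by marker genes that did not include any of the 9 genes, which gave 2908 and 4034 macrophages, 7446 and 12151 cancer cells, 78 and 78 T cells, 74 and 72 dendritic cells, 261 and 297 granulocytes, 57 and 60 endothelial cells, 39 and 36 pericytes and 104 and 174 fibroblasts (sGCCtr first, here and throughout). Natural killer cells numbered 10 in each library and are not compared. No class had a marker of another class among its 10 leading genes, but the classes were drawn with these markers, so this was largely fixed in advance. The class names stand for cells with those markers rather than for sorted populations. Levels are given as CPM, the UMIs of a gene per 1000000 UMIs of its class. *Gucy1b1* was at 120 CPM (91.6 to 155) in sGCCtr pericytes and at 37.7 CPM (20.1 to 64.5) in sGCΔPC pericytes, from 59 and 13 UMIs. UMIs of macrophage markers were also found in the other classes: the 8 markers together stood in cancer cells at 0.663% and 1.64% of their macrophage level, and in granulocytes at 4.85% and 6.31%. A level in CPM is a share of the RNA captured, and levels are compared below between cells for the same gene and not between genes.

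The 9 genes fell into different cells. Macrophages held 77.9% and 69.9% of all *Arg1* UMIs and 69.8% and 60.2% of all *Havcr2* UMIs. Cancer cells, the most numerous and deepest class, held 58.5% and 51.1% of the *Lgals9* UMIs, although their *Lgals9* level was low. T cells, with 78 cells a library, held 42.3% and 35.9% of the *Pdcd1* UMIs and 57.4% and 38.1% of the *Ctla4* UMIs. Cancer cells, at a far lower level, held 9 and 44 *Pdcd1* UMIs beside 22 and 46 in T cells. For *Ctla4* they held 34 and 82 beside 78 and 85. *Cd274* was spread more widely, with 34.3% and 33.0% of its UMIs in macrophages and 10.9% and 9.26% in the much smaller granulocyte class. Cancer cells, at a far lower level, held 788 and 1174 *Cd274* UMIs beside 821 and 1262 in macrophages. *Tigit* had only 22 and 32 UMIs in all retained cells, of which 18 and 22 were in cancer cells and 2 and 2 in T cells.

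**Figure D1:**
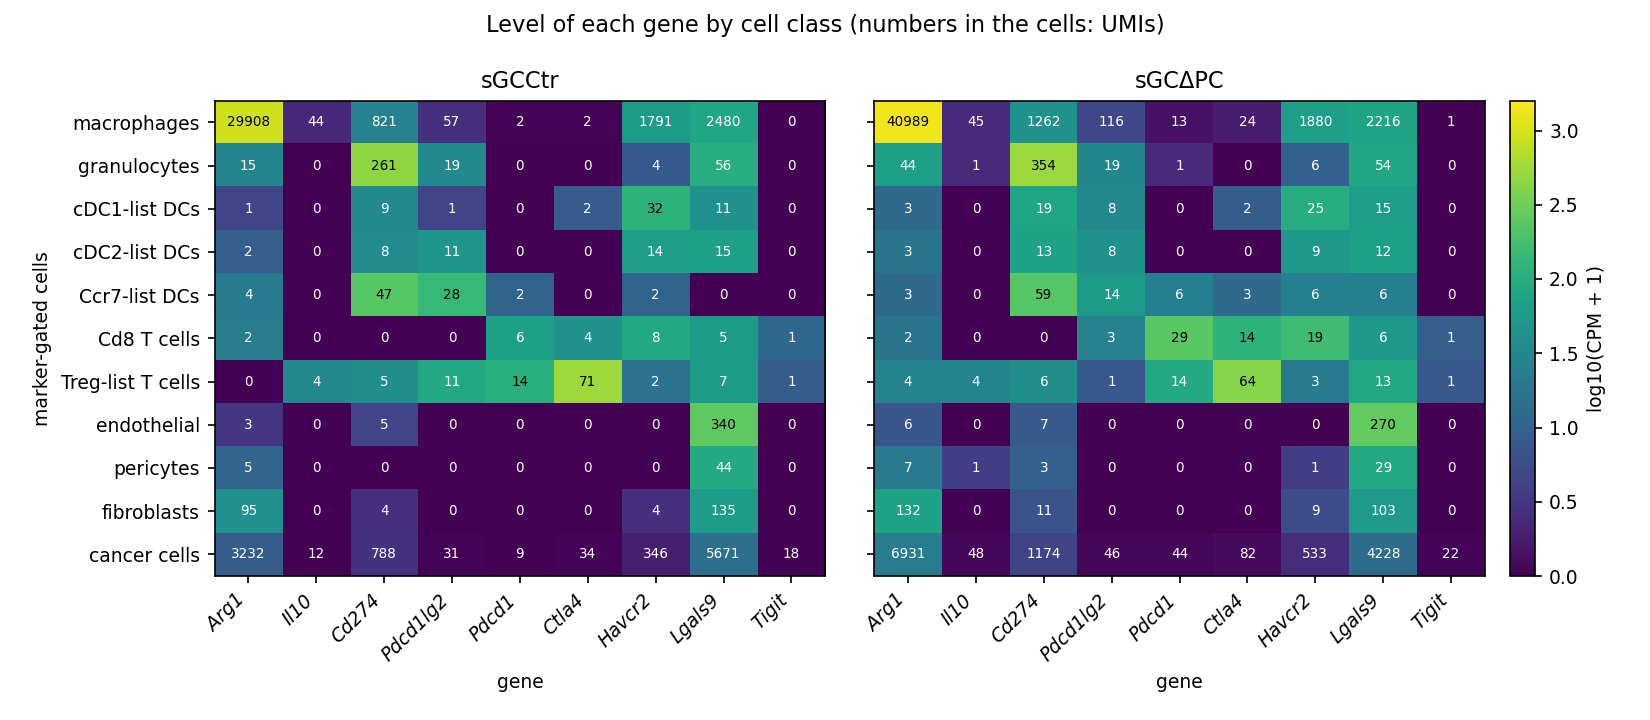
Level of each gene (colour, log10 of CPM + 1) in 11 groups of marker-gated cells of the sGCCtr and sGCΔPC libraries, with the number of UMIs printed in each square. *Arg1* stands highest in macrophages, *Cd274* in granulocytes, *Lgals9* in endothelial cells and *Ctla4* in T cells with the regulatory markers, in both libraries.

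*Arg1* was a macrophage gene in both tumors. Macrophages held 29908 *Arg1* UMIs in sGCCtr and 40989 in sGCΔPC, a level of 918 CPM (907 to 928) and 1354 CPM (1341 to 1367). The sGCΔPC level was 1.5-fold higher, with a log2 ratio of 0.56 (0.54 to 0.58), and the 2 counting intervals did not overlap. At least 1 *Arg1* UMI was found in 71.5% of sGCCtr and 69.2% of sGCΔPC macrophages, and in 51.4% and 58.5% of those that could be thinned to 2000 UMIs. Thinning left out the macrophages under 2000 UMIs, 30 of 2908 in sGCCtr and 993 of 4034 in sGCΔPC, and all thinned macrophage values below share this gap. Among T cells, which should lack the gene, the unthinned shares were 3.85% and 10.3% at a median of 2990 and 3816.5 UMIs per cell, against 10040.5 and 5458 in macrophages. In cancer cells *Arg1* stood at 0.856% and 1.54% of its macrophage level, close to the 0.663% and 1.64% of the macrophage markers there. Granulocytes, a known source of arginase in other settings, held 15 and 44 *Arg1* UMIs, 2.85% and 4.79% of the macrophage level and below the share of macrophage marker RNA in the same cells. Fibroblasts had 40.9 and 68.2 CPM, 4.46% and 5.03% of the macrophage level beside 2.48% and 3.65% for the macrophage markers.

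The size of the *Arg1* difference depended on how deeply a macrophage was captured. Among macrophages under 5000 UMIs, 295 in sGCCtr and 1939 in sGCΔPC, *Arg1* was at 1032 and 927 CPM, and here sGCΔPC was the lower library. Between 5000 and 15000 UMIs the levels were 1096 and 1543 CPM, and at 15000 UMIs or more they were 629 and 1276 CPM. With every macrophage given equal weight the log2 ratio was 0.23. The markers of other cells moved between the libraries as well: the 8 macrophage markers together were at 11250 and 9120 CPM in macrophages (log2 ratio -0.30, 1 of 8 higher in sGCΔPC), the cancer markers in macrophages stood at 7.85% and 10.1% of their cancer level, and the 6 granulocyte markers in macrophages stood at 96.2 and 136 CPM, all 6 higher in sGCΔPC. The part of depth and of these markers in the *Arg1* difference was not tested.

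Macrophages were split into 6 states by the highest of 6 marker scores, none of which used the 9 genes. These were cells with *Ly6c2* and *Plac8*, genes of blood monocytes, cells high in MHC class II genes, cells with *Mrc1* and *Folr2*, cells with *Ctsk* and *Mmp9*, cycling cells (*Mki67*) and cells with *Gpnmb* and *Mmp12*. A state is a range of cells, and 23.5% and 26.0% of macrophages scored close to a boundary. *Arg1* was highest in the *Gpnmb* and *Mmp12* state, at 2016 CPM in sGCCtr and 2387 CPM in sGCΔPC, and with this split lowest in cycling macrophages, at 409 and 628 CPM. The states in between were *Mrc1* and *Folr2* (893 and 1498 CPM), *Ly6c2* and *Plac8* (772 and 914), MHC class II (768 and 1206) and *Ctsk* and *Mmp9* (612 and 946). The *Ly6c2* and *Plac8* state was not separated by its counting interval from the MHC class II state in sGCCtr, nor from the *Ctsk* and *Mmp9* state in sGCΔPC. With this split all 6 states were higher in sGCΔPC, with log2 ratios of 0.75 in the *Mrc1* and *Folr2* state, 0.65 in MHC class II, 0.63 in *Ctsk* and *Mmp9*, 0.62 in cycling cells and 0.24 in both the *Ly6c2* and *Plac8* and the *Gpnmb* and *Mmp12* states. When the states were taken from sub-clusters named by the same markers, the *Gpnmb* and *Mmp12* state was still highest (2303 and 2836 CPM), but the *Ctsk* and *Mmp9* state, with 104 and 145 cells, was lowest and turned in direction, at 222 CPM in sGCCtr and 140 CPM in sGCΔPC. Cycling cells were then at 317 and 574 CPM, so that the lowest state and the direction in the *Ctsk* and *Mmp9* state depended on how the states were drawn.

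**Figure D2:**
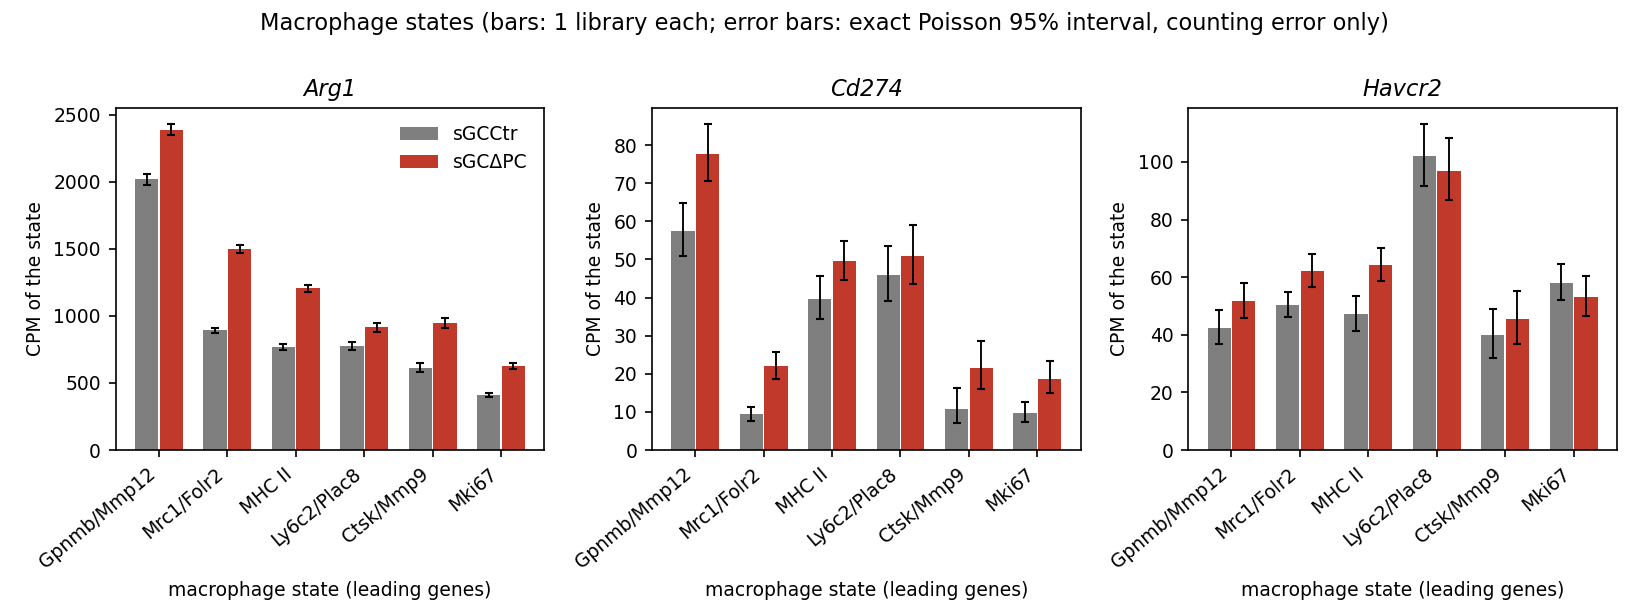
Level (CPM) of *Arg1*, *Cd274* and *Havcr2* in 6 macrophage states of the sGCCtr and sGCΔPC libraries, with exact Poisson 95% intervals as error bars. With this split by score *Arg1* and *Cd274* are highest in the *Gpnmb* and *Mmp12* state and *Havcr2* in the *Ly6c2* and *Plac8* state, but with states from sub-clusters *Cd274* in sGCΔPC is highest in the *Ly6c2* and *Plac8* state (93.4 against 75.7 CPM).

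*Arg1* was unevenly shared among macrophages, as were *Havcr2* and *Lgals9*. The 10% of macrophages with most *Arg1* held 48.8% of its UMIs in sGCCtr and 59.0% in sGCΔPC, and the highest cell had 198 and 268 UMIs. The like shares were 46.0% and 58.4% for *Havcr2* and 44.0% and 56.9% for *Lgals9*. These shares were taken from all UMIs, and depth was not held equal. To see what else macrophages with much *Arg1* carried, the 2878 and 3041 macrophages with at least 2000 UMIs were thinned to that number. They were divided by their *Arg1* UMIs into none (48.2% and 40.5% of these cells), 1 to 4 (37.1% and 41.2%) and 5 or more (14.7% and 18.3%). The *Gpnmb* and *Mmp12* state made up 8.36% of the cells with none and 37.4% of those with 5 or more in sGCCtr, and 10.4% and 37.2% in sGCΔPC. In both libraries this share was highest in the cells with most *Arg1*.

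Cells with 5 or more *Arg1* UMIs were rich in hypoxia genes. The 9 genes of the hypoxia list together were 2.09-fold (sGCCtr) and 2.00-fold (sGCΔPC) higher there than in cells with none. *Vegfa*, the vascular growth factor, was 3.95-fold and 3.04-fold higher, *Bnip3*, a mitochondrial autophagy gene, 3.19-fold and 3.44-fold, *Slc2a1*, the glucose transporter, 2.95-fold and 2.57-fold, and *Egln3*, an oxygen-sensing prolyl hydroxylase, 4.44-fold and 2.89-fold. *Slc7a2*, a cationic amino acid transporter that brings arginine into macrophages, was 10.7-fold and 16.6-fold higher, from 4.16 to 44.7 CPM in sGCCtr and from 8.40 to 139.7 CPM in sGCΔPC. *Nos2*, the inducible nitric oxide synthase that competes with arginase for arginine, was also higher in these cells, 5.22-fold and 4.24-fold, while the ornithine-consuming *Odc1* was 1.20-fold and 1.02-fold. The MHC class II genes went the other way, at 0.493 and 0.585 of their level in cells without *Arg1*. The cancer markers in the same cells were at 1.01-fold and 0.829-fold, and the complement C1q genes at 0.856-fold and 0.997-fold.

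**Figure D3:**
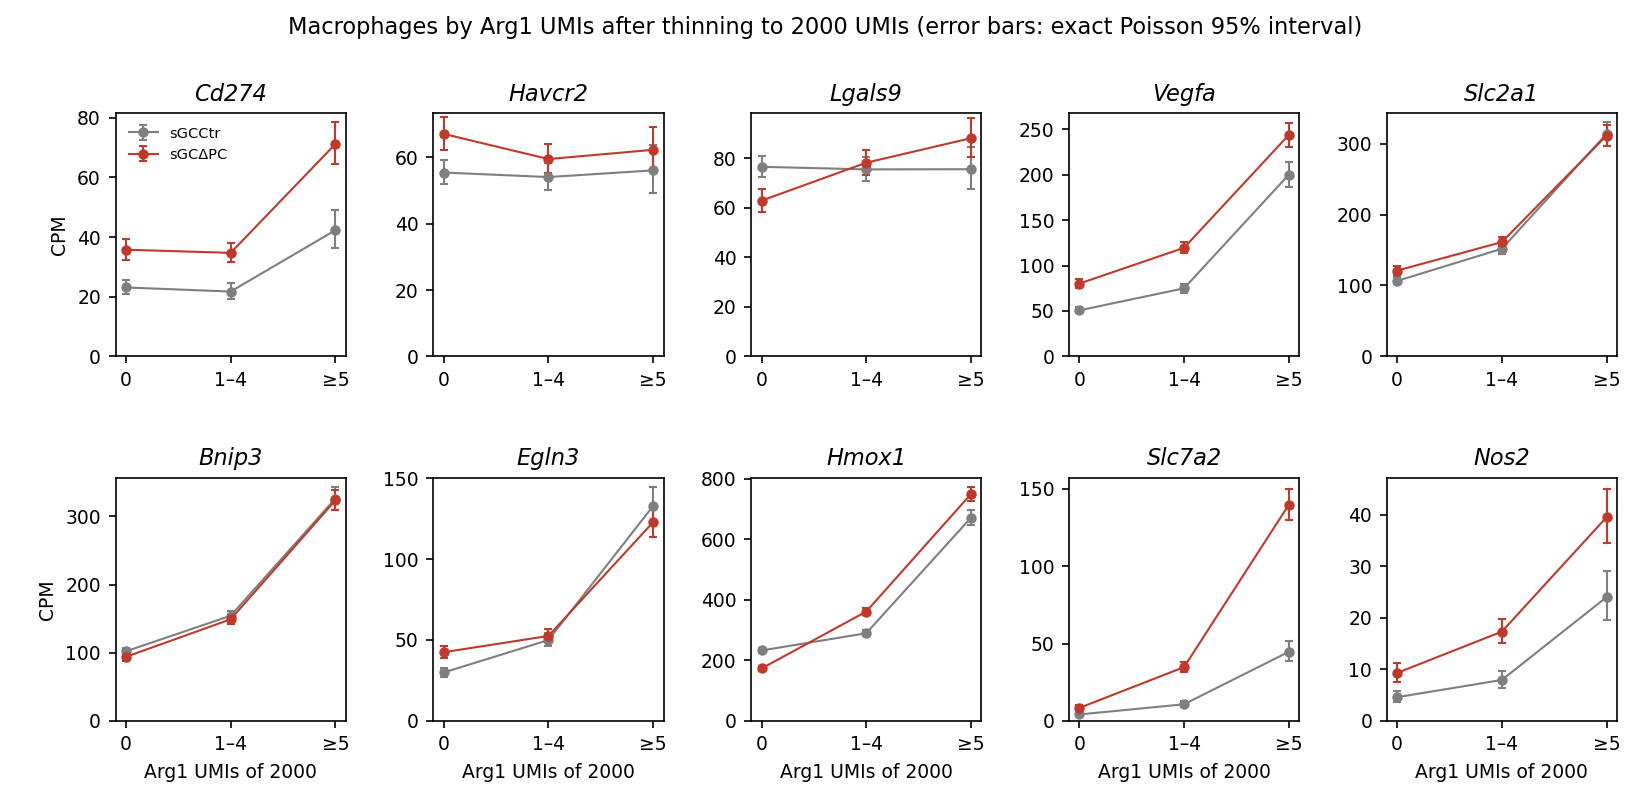
Level (CPM, exact Poisson 95% intervals) of 10 genes in macrophages grouped by their *Arg1* UMIs after thinning each cell to 2000 UMIs, in sGCCtr and sGCΔPC. *Vegfa*, *Slc2a1*, *Bnip3*, *Egln3*, *Hmox1*, *Slc7a2*, *Nos2* and *Cd274* stand higher in cells with 5 or more *Arg1* UMIs, while *Havcr2* stays level in both libraries.

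Checkpoint genes followed *Arg1* unequally. *Cd274* was 1.83-fold and 1.99-fold higher in cells with 5 or more *Arg1* UMIs than in cells with none, from 23.1 to 42.3 CPM in sGCCtr and from 35.8 to 71.2 CPM in sGCΔPC. Cells with 1 to 4 *Arg1* UMIs did not stand above cells without for *Cd274*. *Havcr2* stayed level, at 1.01-fold and 0.928-fold. *Lgals9* was level in sGCCtr (0.987-fold) and 1.40-fold in sGCΔPC. *Pdcd1lg2*, with few UMIs, was lower in sGCCtr, at 0.114-fold, from 33 UMIs in cells with none to 1 UMI. In sGCΔPC it was level at 0.975-fold, from 38 and 19 UMIs.

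*Il10* was scarce. Macrophages held 44 UMIs in 25 cells of sGCCtr and 45 UMIs in 29 cells of sGCΔPC, 1.35 and 1.49 CPM, with a log2 ratio of 0.14 whose interval of -0.49 to 0.77 includes 0. Within macrophages 22 and 19 of these UMIs were in the *Mrc1* and *Folr2* state. The *Gpnmb* and *Mmp12* state held 1 and 10, with a log2 ratio of 3.12 and a wide interval of 0.31 to 8.56. In the other states the interval of the ratio included 0. By level *Il10* was highest in T cells with regulatory markers (the Treg list of the plots), at 30.7 and 25.8 CPM, but these levels rest on 4 and 4 UMIs. Such cells were called from the UMIs of *Foxp3*, *Il2ra* and *Ikzf2* counted together, so that any of these genes alone could be enough. They were set apart before the Cd8 T cells, so that they may include cells with Cd8 genes. All T cells together held 37 and 21 *Foxp3* UMIs. At these *Il10* counts a difference between the libraries was not detectable over all macrophages or in the regulatory-marker T cells. Cancer cells, where the *Il10* ratio was wide, are described below.

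*Cd274*, which encodes PD-L1, was highest in granulocytes. They held 261 UMIs in sGCCtr and 354 in sGCΔPC, 454 and 522 CPM, with a log2 ratio of 0.20 (-0.03 to 0.44), and 39.7% and 44.1% of the 141 and 179 granulocytes that could be thinned to 2000 UMIs had at least 1. The next level was in dendritic cells with *Ccr7* and *Fscn1*, the migratory state, at 231 and 228 CPM from 47 and 59 UMIs. Over all dendritic cells the level was 89.7 and 131 CPM, with a log2 ratio of 0.54 (0.06 to 1.03), and the granulocyte markers in the same dendritic cells stood at 89.7 and 422 CPM, whose part in that difference was not tested.

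In macrophages *Cd274* was at 25.2 CPM in sGCCtr (821 UMIs) and 41.7 CPM in sGCΔPC (1262 UMIs), 1.66-fold higher, with a log2 ratio of 0.73 (0.60 to 0.86). The ratio was smaller with equal weight per cell (0.32) and with clusters (0.49, 0.38 to 0.61). Over all settings it lay between 0.32 and 0.85. The share of macrophages with a UMI was 14.9% and 15.4%, and 5.14% and 6.77% after thinning. With states split by score the order was *Gpnmb* and *Mmp12* (57.5 and 77.7 CPM), *Ly6c2* and *Plac8* (45.8 and 50.9) and MHC class II (39.7 and 49.5), followed by the *Mrc1* and *Folr2*, *Ctsk* and *Mmp9*, and cycling states, which lay between 9.41 and 10.9 CPM in sGCCtr and between 18.7 and 21.9 CPM in sGCΔPC. The widest ratios were in those 3 low states, log2 1.22 in *Mrc1* and *Folr2*, 0.99 in *Ctsk* and *Mmp9* and 0.94 in cycling cells, against 0.43 in *Gpnmb* and *Mmp12*, 0.32 in MHC class II and 0.15 (-0.17 to 0.47) in the *Ly6c2* and *Plac8* state. From sub-clusters *Cd274* in the *Gpnmb* and *Mmp12* state was at 126.9 CPM in sGCCtr and 75.7 CPM in sGCΔPC, the opposite direction, and in sGCΔPC the *Ly6c2* and *Plac8* state was highest at 93.4 CPM. As for *Arg1* in macrophages, the direction turned among the shallowest macrophages, where *Cd274* was at 73.4 and 36 CPM under 5000 UMIs, against 27.9 and 51.8 CPM between 5000 and 15000 and 16.7 and 30.8 CPM above. *Cd274* was low in cancer cells, at 1.91 and 3.52 CPM, 7.60% and 8.45% of its macrophage level.

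*Pdcd1lg2*, which encodes PD-L2, was highest by class in dendritic cells, although macrophages held more of its UMIs. Dendritic cells held 40 UMIs in sGCCtr and 30 in sGCΔPC, 56.1 and 43.1 CPM, with a log2 ratio of -0.38 (-1.11 to 0.34). Within them the *Ccr7* and *Fscn1* cells were highest, with 28 and 14 UMIs, 138 and 54.2 CPM. Their log2 ratio was -1.35 (-2.39 to -0.37). The cDC1-list cells held 1 and 8 UMIs and went the other way, with a log2 ratio of 3.10 (0.20 to 8.57). The cDC2-list cells held 11 and 8, with a log2 ratio of -0.09 (-1.60 to 1.36). All these subset ratios rest on few UMIs. Of the dendritic cells with *Pdcd1lg2*, 72.7% in sGCCtr and 73.9% in sGCΔPC also had a *Cd274* UMI. Of all dendritic cells, 34 of 74 and 38 of 72 had one, and depth was not held equal. Granulocytes had 33.1 and 28 CPM from 19 and 19 UMIs. Macrophages had a low level that differed between the libraries, 57 UMIs (1.75 CPM) in sGCCtr and 116 UMIs (3.83 CPM) in sGCΔPC, 2.19-fold higher, with a log2 ratio of 1.13 (0.66 to 1.62). The MHC class II state held 36 and 89 of those UMIs, 7.14 and 11.7 CPM, with a log2 ratio of 0.71. The macrophage difference fell below 2-fold under a mitochondrial limit of 5% (log2 0.56, -0.01 to 1.14) and when macrophages were taken from clusters (0.24, -0.10 to 0.59), and both intervals include 0. It was also below 2-fold after thinning to 2000 UMIs (0.78, -0.35 to 1.99, from 11 and 20 UMIs) and with equal weight per cell (0.89). T cells with the regulatory markers had 11 *Pdcd1lg2* UMIs in 7 cells of sGCCtr and 1 UMI in 1 cell of sGCΔPC, 84.5 and 6.46 CPM. The log2 ratio was -3.71 with a wide interval of -9.14 to -0.93. The sGCCtr interval of 42.2 to 151 CPM includes the 56.1 CPM of all dendritic cells and the 138 CPM of the *Ccr7* and *Fscn1* cells of that library.

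*Lgals9*, which encodes galectin-9, was highest in endothelial cells, at 252 CPM in sGCCtr (340 UMIs) and 268 CPM in sGCΔPC (270 UMIs), with a log2 ratio of 0.08 (-0.15 to 0.32). Granulocytes (97.5 and 79.7 CPM), pericytes (89.7 and 84.1), macrophages (76.1 and 73.2) and fibroblasts (58.2 and 53.2) followed, and cancer cells were lowest of these at 13.8 and 12.7 CPM. In macrophages, with 2480 and 2216 UMIs, the log2 ratio was -0.06, near the median of all macrophage genes at -0.05. It was lower after thinning to 2000 UMIs (-0.27, -0.46 to -0.07), with equal weight per cell (-0.27) and with clusters (-0.11, -0.18 to -0.03). Over all settings it lay between -0.27 and -0.01. The *Ctsk* and *Mmp9* state was the lowest of the 6, at 35.8 and 40.8 CPM, and the cycling state had the widest ratio, log2 -0.44. *Lgals9* had UMIs in every class compared.

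*Havcr2*, which encodes TIM-3, was carried mostly by myeloid cells. Dendritic cells had 67.3 CPM in sGCCtr (48 UMIs) and 57.4 CPM in sGCΔPC (40 UMIs), with a log2 ratio of -0.23 (-0.87 to 0.41). Among dendritic cells the cDC1-list cells, which carry *Xcr1* and *Clec9a*, were highest at 117 and 98.1 CPM. Cd8 T cells were at 86 and 158 CPM, from 8 and 19 UMIs. Macrophages had 54.9 and 62.1 CPM from 1791 and 1880 UMIs, with a log2 ratio of 0.18 (0.08 to 0.27). The share of macrophages with a UMI was 38.7% and 28.4%, but 11.3% and 11% after thinning to equal depth. When every macrophage weighed the same the ratio reversed to -0.053. It was 0.05 (-0.04 to 0.14) with clusters and 0.12 (-0.09 to 0.33) after thinning to 2000 UMIs, and both intervals include 0. The direction turned among macrophages under 5000 UMIs, at 76.1 and 52.5 CPM. Between 5000 and 15000 UMIs the levels were 59.5 and 68.6 CPM, and above that 46.0 and 57.4 CPM. The *Ly6c2* and *Plac8* state was highest, at 102 and 97 CPM, and the MHC class II state had 47.2 and 64.3 CPM, with a log2 ratio of 0.45. Endothelial cells had 0 UMIs in both libraries, which at 3 counts of the total allows a share of cells with a UMI of up to 5.26% of 57 cells and 5% of 60. In macrophages 53.6% and 49.6% of the cells with *Havcr2* also had a UMI of its ligand gene *Lgals9*. Of all macrophages, 1374 of 2908 and 1240 of 4034 had an *Lgals9* UMI, and these shares were not taken at equal depth.

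T cells had the highest levels of *Pdcd1* and *Ctla4*, and with 78 cells in each library every value rests on few UMIs. *Pdcd1* had 22 UMIs in sGCCtr and 46 in sGCΔPC, 76.6 and 129 CPM, with a log2 ratio of 0.75 (-0.02 to 1.55). The gap lay in Cd8 T cells (27 and 22 cells), where 6 UMIs in 3 cells stood against 29 UMIs in 12 cells, 64.5 and 242 CPM, with a log2 ratio of 1.91 (0.61 to 3.47). Without the cell with most *Pdcd1* UMIs in each library, 2 and 20 UMIs remained and the log2 ratio was 3.00 (0.96 to 6.14). The Cd8 T cells of sGCΔPC were also the deeper, with a median of 5187 UMIs against 3149, and among the 22 and 19 that could be thinned to 2000 UMIs the share with *Pdcd1* was 13.6% and 52.6%. T cells with the regulatory markers, 26 and 30 cells, had 14 and 14 UMIs, 108 and 90.4 CPM. The counting intervals of the 2 libraries overlapped for *Pdcd1* in the regulatory-marker cells. Whether the ratio differed between the subsets was not tested.

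*Ctla4* was carried mainly by the regulatory-marker T cells, 71 of its 78 T cell UMIs in sGCCtr and 64 of 85 in sGCΔPC, 545 and 413 CPM, with a log2 ratio of -0.40 (-0.91 to 0.11). Over all T cells it was at 272 and 238 CPM, with a log2 ratio of -0.19 (-0.65 to 0.27). The sign of that ratio changed with equal weight per cell (0.31) and in 1 random thinning to 2000 UMIs (0.29, -0.51 to 1.11). In another such draw the levels were 231 and 206 CPM, without a change of sign. With clusters the ratio was -0.52 (-0.94 to -0.10). In Cd8 T cells *Ctla4* had 4 and 14 UMIs, and 1 of 22 and 1 of 19 such cells had it after thinning to 2000 UMIs. *Havcr2* in Cd8 T cells had 8 and 19 UMIs, 86 and 158 CPM, with a log2 ratio of 0.88 (-0.38 to 2.28). Of the T cells with *Havcr2*, 1 of 6 in sGCCtr and 7 of 8 in sGCΔPC also had *Pdcd1*, and cells with both *Pdcd1* and *Ctla4* numbered 3 and 10. Of all 78 T cells in each library, 11 and 21 had *Pdcd1* and 20 and 24 had *Ctla4*. Depth was not held equal in these counts, and the T cells had a median of 2990 and 3816.5 UMIs. *Tigit* had 2 and 2 UMIs in T cells, too few for a ratio.

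**Figure D4:**
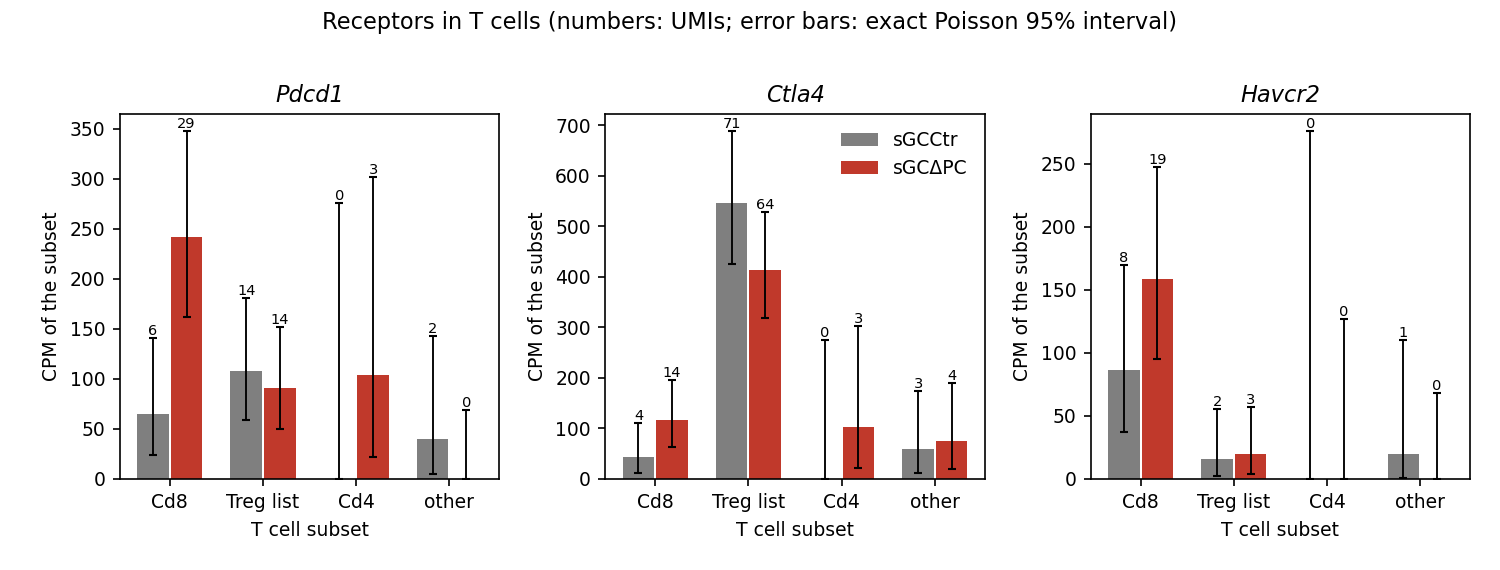
Level (CPM, exact Poisson 95% intervals) of *Pdcd1*, *Ctla4* and *Havcr2* in Cd8 T cells, T cells with the regulatory markers, Cd4 T cells and other T cells of sGCCtr and sGCΔPC. *Pdcd1* in Cd8 T cells is at 64.5 CPM in sGCCtr and 242 CPM in sGCΔPC, while *Ctla4* is highest in the regulatory-marker cells of both libraries.

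The ratios of the 9 genes were read beside those of all genes. In macrophages 6 of the 9 genes had at least 50 UMIs in the 2 libraries together. Of these 1, *Pdcd1lg2*, was at least 2-fold higher in sGCΔPC, beside 1.01% of 12188 genes. It was below 2-fold under the mitochondrial limit of 5%, with clusters, after thinning to 2000 UMIs and with equal weight per cell. None of the 6 was at least 2-fold lower, beside 0.369% of genes. The median log2 ratio of the 6 was 0.37, against -0.05 for all genes. In dendritic cells 0 of 4 genes was at least 2-fold higher, beside 1.12% of 3484 genes. In T cells 0 of 2 genes, *Pdcd1* and *Ctla4*, was 2-fold higher or lower, beside 0.973% and 0.801% of 1748 genes. *Pdcd1* was past 2-fold without cells of over 25% cancer RNA (log2 1.02, 0.15 to 1.95, from 16 and 41 UMIs). Over all settings *Pdcd1* in T cells lay between 0.36 and 1.02.

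**Figure D5:**
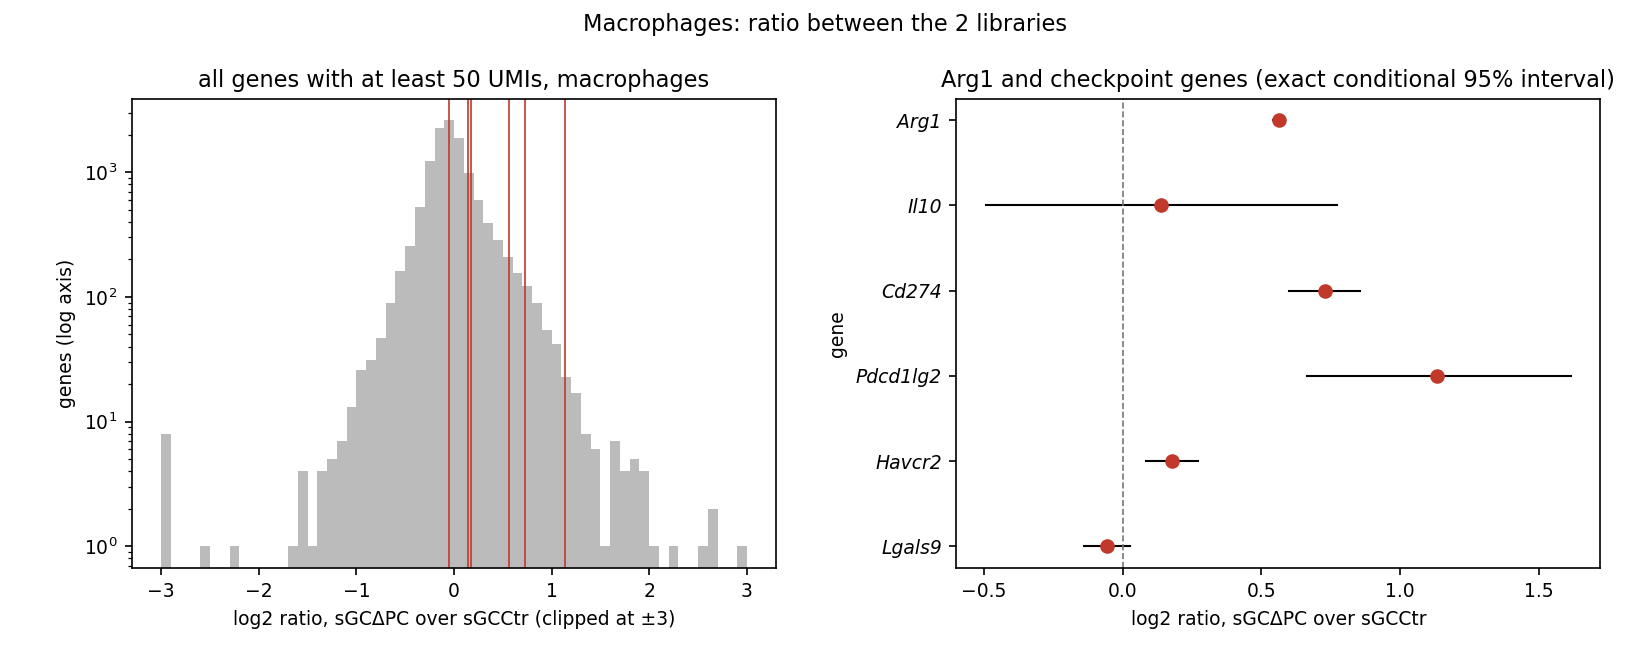
Left, number of genes (log axis) by log2 ratio of sGCΔPC over sGCCtr in macrophages for all 12188 genes with at least 50 UMIs, with lines at 6 of the genes followed here. Right, the log2 ratios of those 6 genes with exact conditional 95% intervals, where *Pdcd1lg2*, *Cd274* and *Arg1* lie furthest to the right and *Lgals9* lies at -0.06.

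In cancer cells 4 of 8 genes were at least 2-fold higher in sGCΔPC, *Arg1* (log2 1.41), *Il10* (2.31), *Pdcd1* (2.59) and *Ctla4* (1.58), beside 3.93% of 15307 genes. Markers of macrophages and T cells were higher in the same cancer cells: the macrophage markers by a log2 ratio of 1.00 (8 of 8 higher) and the T cell markers by 1.55, from 388 to 919 UMIs (6 of 6 higher). *Pdcd1* and *Ctla4* stood there at 0.0285% and 0.0304% of their T cell level in sGCCtr and at 0.103% and 0.104% in sGCΔPC, and the T cell markers at 0.0231% and 0.0728%. *Il10* stood in cancer cells at 2.16% and 9.69% of its macrophage level, above the 0.663% and 1.64% of the macrophage markers there, from 12 and 48 UMIs. The part of these markers in the 4 ratios was not tested. *Cd274* (0.88) and *Lgals9* (-0.12) were not past 2-fold in cancer cells.

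Genes that work with *Arg1* in macrophages were counted from lists chosen by function. Of the 8 arginine metabolism genes 2 were at least 2-fold higher in sGCΔPC and none was lower, beside 1.01% and 0.369% of all macrophage genes, with a median log2 ratio of 0.10 against -0.05. They were the arginine transporter *Slc7a2*, from 388 to 1341 UMIs (11.9 and 44.3 CPM, log2 1.90), and *Nos2*, from 273 to 558 UMIs (log2 1.14). The mitochondrial arginase *Arg2* was at log2 -0.56 and *Odc1* at 0.21. Of the 9 genes that induce *Arg1* or carry the IL-10 signal none was past 2-fold (median 0.11), with the transcription factor *Cebpb* at 0.38, *Socs3* at 0.29 and the IL-4 receptor *Il4ra* at -0.17. The 9 hypoxia genes had a median of 0.30 and none past 2-fold, with *Adm* at 0.73, *Vegfa* at 0.67 and *Ldha* at -0.01.

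Other checkpoint genes were counted likewise. Of 19 further ligands or myeloid inhibitory receptors 18 had enough UMIs in macrophages and none was past 2-fold (median 0.06), with *Cd80*, a ligand of CTLA-4, at 0.34 and the phagocytosis checkpoint receptor *Sirpa* at -0.25. Of 12 further T cell checkpoint genes, which were receptors and the transcription factor *Tox*, 7 had enough UMIs in T cells, and 2 were at least 2-fold higher and 1 lower, beside 0.973% and 0.801% of all T cell genes. *Lag3*, an inhibitory receptor for MHC class II, had 14 and 87 UMIs, with a log2 ratio of 2.32 (1.5 to 3.25), and *Cd160* had 15 and 40 (1.10), both higher in sGCΔPC. The costimulatory receptor *Tnfrsf4* had 216 and 115 UMIs and was lower (-1.23), and the median of the 7 was -0.11. *Lag3* was thus the receptor with the widest T cell ratio on this list.

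The genes whose levels were most like those of each gene were sought among 14124 genes over 16 points, 8 classes in each of 2 libraries, by Pearson r of log2(CPM + 10). Points of a library share its depth, and genes at 0 in most classes correlate readily, so the values are descriptive. *Arg1* was most like *F13a1* (0.95), *Mamdc2* and *Trem2*, and *Cd274* most like *Spty2d1* (0.98), *Rab11fip1* and *Mcemp1*. *Pdcd1lg2* was nearest to *Jaml*, *Nr4a3* and *Cytip*, *Havcr2* to *Runx3*, *Cd48* and *Ubash3b*, and *Lgals9* to *Pnrc2*, *Tmod3* and *Bcl10*. The T cell genes led for the rest: *Pdcd1* was nearest to *Sla2*, *Ikzf2* and *Ctla4*, *Ctla4* to *Icos*, *Gzmb* and *Cd3d*, *Il10* to *Skap1*, *Lat* and *Trac*, and *Tigit* to *Gimap7*, *Gata3* and *Prf1*. Over the 6 macrophage states in both libraries, 12 points, *Arg1* was most like *Plk2* (0.97), *Jund* and *Lonrf1*, and *Cd274* most like *Sowahc*, *Egr2* and *Pfkp*.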

How the data were processed

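Whole LLC tumors were dissociated without sorting, and 3 tumors of each genotype were pooled into 1 droplet 3′ library. The authors aligned reads to mm10 with Cell Ranger 6.1.1 and deposited raw UMI counts per gene and barcode. Their retained cells and cluster names were not used here. Cells within 3 median absolute deviations of the median log UMIs and genes and with under 10% mitochondrial UMIs were kept. No doublet caller was run, and cells that passed more than 1 marker gate formed the macrophage+cancer and mixed groups, which were left out of the classes. A gate required a number of markers and of UMIs per 10000, set after marker levels had been seen. The genes and lists were chosen with earlier results of these data known.

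UMIs were summed per class and library (Python 3.11.15, numpy 2.4.6, scipy 1.17.1, scanpy 1.11.5). CPM carry exact Poisson intervals, ratios exact conditional and shares exact binomial intervals at 95%. With 1 library per group there was no test, and genes with at least 50 UMIs and a 2-fold ratio were counted as past the threshold. Gene coordinates came from GENCODE on GRCm38. The ratio calculation was tested on simulated data. The genes named were the 9 genes, the genes of 5 functional lists and the 3 genes most like each. *Ero1l* is the file's name for *Ero1a*. Depth filters, gates, thinning, clustering (leidenalg 0.10.2), equal weight per cell and median centring were varied.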

Additional observations from a re-analysis of the deposited data

How the results depend on the processing

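The log2 ratio of each of the 9 genes was recalculated in the class with its highest level over both libraries together. Of 75 such values, 60 stayed within the counting interval of the value reported and 15 moved outside it. This count depends on the width of the intervals. Those of *Tigit* (-4.10 to 3.47) and *Il10* (-2.74 to 2.11) in T cells are so wide that staying inside says little. The narrow interval of *Arg1* in macrophages (0.54 to 0.58) was left in most settings. *Arg1* in macrophages (0.56) stayed positive throughout, at 0.64 with a mitochondrial limit of 5%, 0.53 and 0.60 with gates multiplied by 2 and by 0.5, 0.46 with Leiden clusters in place of gates, 0.60 without cells of over 25% cancer RNA, 0.39 after thinning to 2000 UMIs, 0.23 as the mean of per-cell CPM and 0.61 relative to the median gene. *Cd274* in granulocytes went to 0.47 and *Havcr2* in dendritic cells to -1.04 with gates multiplied by 2. Thinning is a random draw of UMIs. In the draw used for ratios *Pdcd1lg2* in dendritic cells was at -1.61 (14 and 4 UMIs) and *Ctla4* in T cells at 0.29 (25 and 32). *Lgals9* in endothelial cells was then at -0.60 (34 and 22 UMIs). In another draw to 2000 UMIs *Ctla4* in T cells was at 231 and 206 CPM, without a change of sign. There 15.3% of 72 and 12.7% of 63 dendritic cells had *Pdcd1lg2*. The per-cell mean moved *Ctla4* in T cells to 0.31 and *Lgals9* in endothelial cells to -0.25. *Havcr2* in macrophages (0.18) reversed to -0.053 as a per-cell mean. By the same mean *Cd274* in macrophages (0.73) went to 0.32 and *Lgals9* in macrophages (-0.06) to -0.27. *Pdcd1lg2* in macrophages (1.13) lay between 0.24 and 1.24 over all settings. The count of macrophage genes at least 2-fold higher or lower, 123 and 45, became 284 and 109 with a minimum of 20 UMIs and 46 and 13 with 200. The share of macrophages with *Arg1* was 40.0% and 46.8% when thinned to 1000 UMIs, and *Arg1* in the *Gpnmb* and *Mmp12* state was 2303 and 2836 CPM from sub-clusters. There *Arg1* in the *Ctsk* and *Mmp9* state (612 and 946 CPM) became 222 and 140 CPM, and *Cd274* in the *Gpnmb* and *Mmp12* state (57.5 and 77.7 CPM) became 126.9 and 75.7 CPM, both turned in direction. Why these values moved was not tested. A further pair of settings were added after seeing the data. These were the ratios in macrophages for *Il10*, *Cd274*, *Pdcd1lg2*, *Havcr2* and *Lgals9*, and T cell subsets without the cell richest in the gene. Clusters gave no dendritic class in sGCCtr and no endothelial class in sGCΔPC. *Il10* and *Tigit* in T cells had no ratio after thinning, because that draw left 0 UMIs of each in sGCCtr. In the other draw 2 of 65 and 2 of 68 T cells had *Il10*. *Tigit* in T cells also had no value with the mitochondrial limit of 5%, nor had *Pdcd1lg2* in regulatory-marker T cells without its richest cell. No paired analysis was possible because each genotype was 1 library and no test was made. *Il10*, *Tigit* and the T cell values rest on few UMIs.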
